A study of Caenorhabditis elegans with 2 samples.

Results

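Binding sites of the factor PQM-1 were mapped by chromatin immunoprecipitation followed by sequencing (ChIP-seq) in whole Caenorhabditis elegans larvae at the L3 stage, and the sites described are those around 6 of the 19973 protein-coding genes of the nuclear genome: mml-1, mxl-2, mdl-1, mxl-1, mxl-3 and hlh-30. They were chosen by name, as the members of the MML, MXL and HLH-30 network of basic helix-loop-helix (bHLH) factors, with peak signals of this experiment already known, so their values are given as a description, without a test. Around each gene, all peak summits were taken from 12 kb upstream of its 5' end to 2 kb downstream of its 3' end (the window). All 6 symbols were found in the annotation.

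The larvae were of strain OP201, genotype unc-119(tm4063) III with the wgIs201 insertion, which carries eGFP-tagged pqm-1, and the sexes were pooled. The labels give the target of the antibody only as pqm-1, and do not say whether the native pqm-1 gene was intact. There was 1 group with 2 biological replicates, and no other genotype, stage or treatment, so no contrast between conditions was possible. The tagged protein came from a transgene, and whole animals were used, so strong binding in few cells and weak binding in many cannot be told apart. The control experiment that the labels name was not analysed here, so how much of the signal arises without the tagged protein was not tested. Peak lists were the data used, and they give no read counts, so the depth is unknown. The strength of a peak is given as the authors' signal value, a score of unstated scale that is compared only within a list, and by its rank in that list (1 is strongest).

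PQM-1 is a C2H2-type zinc finger factor, best known in the intestine, where its presence in nuclei is opposite to that of the insulin-regulated factor DAF-16, and it is linked with the sequence TGATAAG. bHLH proteins of the Myc, Max and Mad type bind DNA as pairs, at E-boxes such as CACGTG. In this network MML-1, related to mammalian MondoA and ChREBP, pairs with MXL-2, related to Mlx, and MDL-1, related to Mad, pairs with MXL-1, related to Max. MXL-3, another Max-like factor, represses lysosomal lipase genes in fed worms, while HLH-30, the worm TFEB, activates lysosome and autophagy genes, above all in fasting.

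The network genes fell into very unequal groups by the number of sites around them. The authors' optimal list was thresholded by the IDR measure (irreproducible discovery rate). Its peaks were the 5560 strongest of the list called on both replicates together. A place in it thus does not show that a given peak is reproducible. It placed 28 summits in the 6 windows. Of these, 11 lay at mxl-3, 8 at mdl-1, 7 at hlh-30, 1 at mml-1 and 1 at mxl-1, and the window of mxl-2 held none. An optimal summit was thus present in 5 of 6 windows, against 55.0% of windows of the same extent over all protein-coding genes, so that the count of genes says little and the number of summits per gene differs far more. Summits were present at 7.25 per 10 kb of the mxl-3 window, 5.15 at mdl-1 and 2.05 at hlh-30, against 0.554 over the genome and 0.672 on the X chromosome, where mxl-3 and mdl-1 lie. The windows of mml-1 (0.538 per 10 kb) and mxl-1 (0.663) were close to the genome value.

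**Figure D1:**
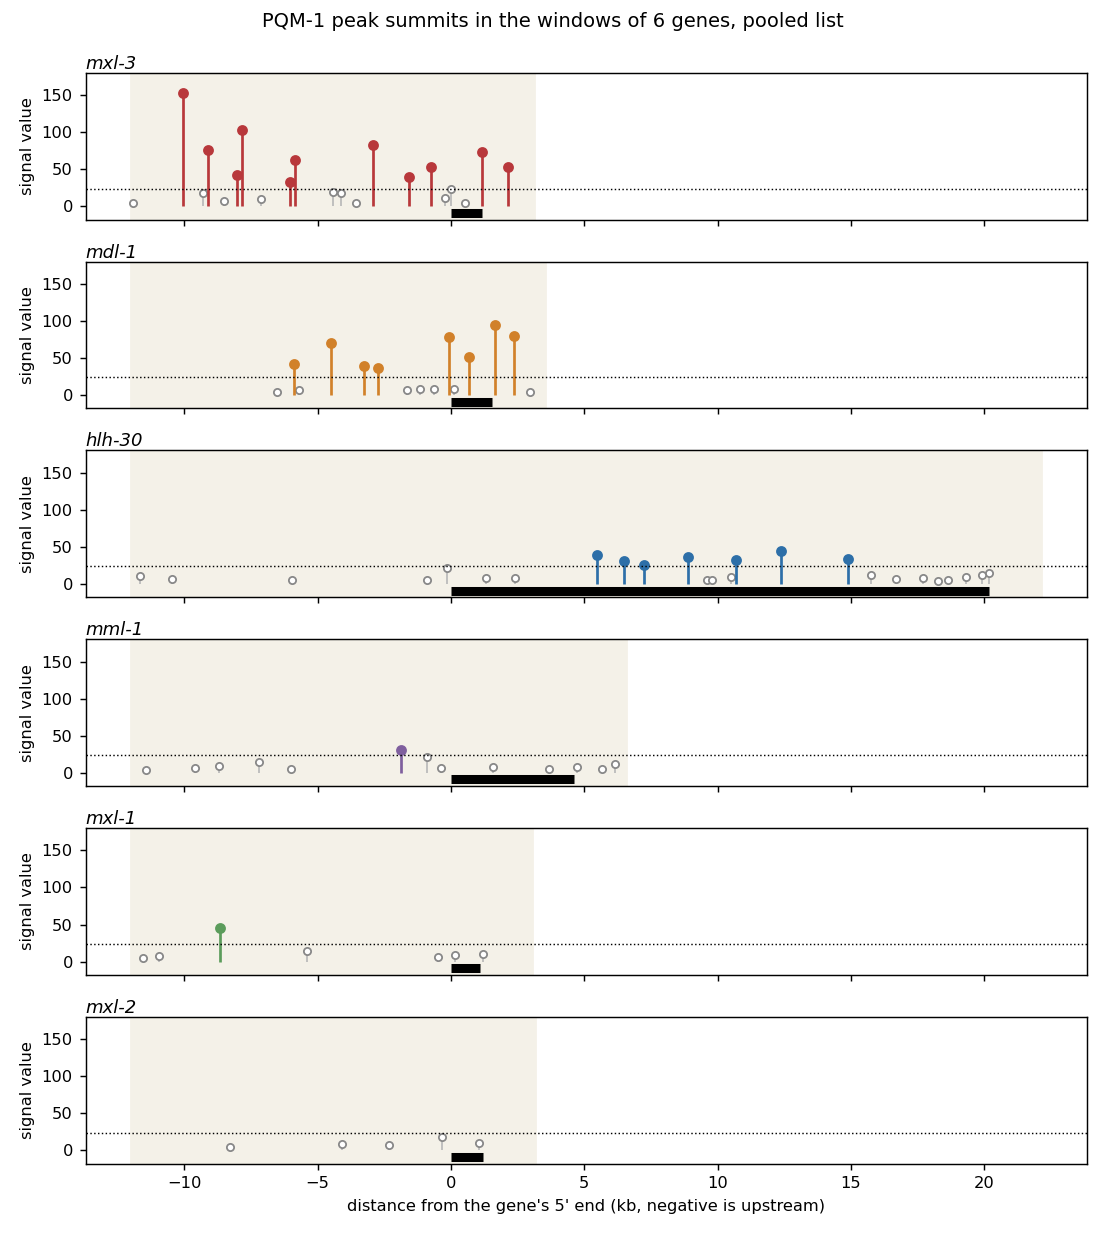
Position of every pooled-list summit in the window of each gene (shaded), as distance from the gene's 5' end in kb, against the authors' signal value; filled points are optimal summits, open points are weaker pooled summits, the dotted line is the optimal limit of 23.8 and the black bar is the gene. The 11 summits of mxl-3 and 8 of mdl-1 reach 153.2 and 93.9, the 7 of hlh-30 all lie inside the gene at 44.7 or less, and mxl-2 has open points only.

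Few genes had as many summits nearby. Of all protein-coding genes, 4 had 11 or more optimal summits in the window, and these were hyl-1 with 13, M01H9.3 with 12, mxl-3 and pkg-2 (named after their counts were seen). For mdl-1, 27 genes (0.135%) had 8 or more, and for hlh-30, 68 genes (0.340%) had 7 or more. The hlh-30 window is long, at 34.2 kb. Among the 175 genes with a window within 10% of that length, 4.57% had 7 or more. Counted over the gene itself rather than its window, hlh-30 with its 7 summits stood among 0.0451% of genes. That share is over genes of any length, and hlh-30 is long (20159 bp). It was not matched for length, so it does not show how unusual hlh-30 is among long genes. Windows of neighbouring genes overlap, so these shares count some summits for more than 1 gene.

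**Figure D2:**
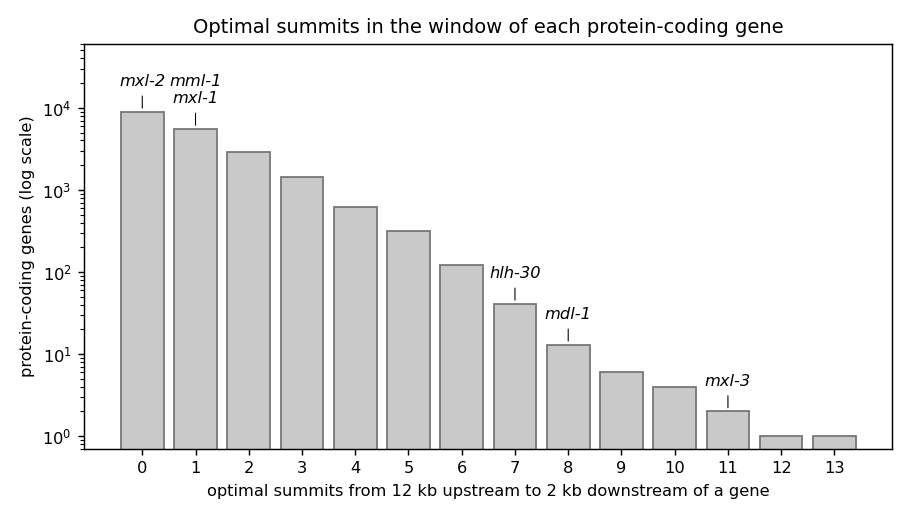
Number of protein-coding genes (log scale) by the number of optimal summits from 12 kb upstream to 2 kb downstream of the gene. The 3 genes mxl-3 (11), mdl-1 (8) and hlh-30 (7) lie in the right-hand tail, while mml-1 and mxl-1 (1 each) and mxl-2 (0) lie in the highest bars.

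Summits at the 5' ends themselves were counted next. A promoter was taken as 1000 bp upstream to 250 bp downstream of the gene's 5' end. An optimal summit lay in the promoters of mdl-1 and mxl-3, which makes 2 of 6 genes against 16.3% of all protein-coding genes. When the 5' ends of all annotated transcripts were counted, hlh-30, with 10 distinct starts, joined them, giving 3 of 6 against 17.7%. In the relaxed list called on both replicates together, which holds 30000 peaks, all 6 promoters held a summit, against 45.1% of all genes. The authors label this list and those of the replicates as peaks and background. A weak entry there need not be a binding site. Of the 28 optimal summits, 20 were nearer to the 5' end of their network gene than to that of any other protein-coding gene. By annotation 19 were intergenic, 8 were in introns and 1 was in a coding exon. The counts by nearest gene and annotation describe the 28 alone, with no share over all optimal summits beside them.

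Among the network genes mxl-3 had the most summits and the strongest one. The gene lies on the minus strand (WBGene00003511, chrX:13349639-13350804, WBcel235) and has 1 annotated transcript. Its signals ran from 33.2 to 153.2 with a median of 62.1, where the median over all optimal peaks was 43.6. Of its 11 summits, 9 were upstream and 2 were at or past its 3' end. The upstream ones were strung over an intergenic stretch that ends at C49F8.15, a gene on the same strand whose 3' end is at -10397 bp. No protein-coding 5' end other than that of mxl-3 lies in this stretch. By distance alone, 5 of the 11 summits were nearer to the 5' end of C49F8.15, at -11782 bp, and 6 were nearest to mxl-3.

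The strongest mxl-3 summit, at -10058 bp (distances are from the gene's 5' end, negative upstream), had a signal of 153.2 and ranked 99 of 5560 in the optimal list. Its replicate signals were 118.8 in replicate 1 and 43.4 in replicate 2, and it ranked 93 in each replicate's list. It was the strongest mxl-3 peak in each of the lists. The summit at -7829 bp followed, with a signal of 102.8 (rank 456), 76.4 in replicate 1 and 33.5 in replicate 2. Nearer to the gene, the summit at -2931 bp had a signal of 82.8, with 71.0 in replicate 1 and 16.6 in replicate 2. The promoter summit at -770 bp was weaker, at 52.9 (rank 2057), with 49.4 in replicate 1 and 12.7 in replicate 2. At the 5' end itself, at -18 bp, the pooled list held a peak of 22.7. The weakest optimal peak of the genome has 23.8, so this one just missed the list. The other end of the gene was also marked, with a summit 6 bp past the 3' end (signal 73.5, replicates 54.8 and 14.02) and another 984 bp past it (53.4, replicates 38.1 and 14.9).

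Replicate 1 had a separate peak for each of the 11 when each was paired with the overlapping peak whose summit was nearest (a pairing chosen after the pairs were seen). In replicate 2 the peaks at -8030 and -7829 bp overlapped a single peak, as did those at -6048 and -5849 bp, so 9 peaks of replicate 2 stood behind the 11. In replicate 1 the summit at -6048 bp (pooled signal 33.2) had its own peak of 27.98 (rank 3438), 14 bp away, and also overlapped the stronger one at -5848 bp (55.6, rank 1093). The closest summits were 199 bp apart and the median gap was 1030 bp. Peaks narrower than the usual 340 bp were 4 of 11 at mxl-3, 3 of 8 at mdl-1, and none of the 7 at hlh-30 or the 1 each at mml-1 and mxl-1. This made 7 of 28, against 17.5% of all optimal peaks.

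The Mad-like gene mdl-1 (WBGene00003163, chrX:6742351-6743899, plus strand, 1 transcript) was bound on both sides and inside. Of its 8 summits, 5 were upstream, 1 was in an intron and 2 were past the 3' end. Their signals ran from 36.9 to 93.9 with a median of 60.9. Its only neighbour in the window, R03E9.2, points away from it, with its 5' end at -9050 bp. Of the 8 summits, 7 were nearest to mdl-1 and the farthest, at -5887 bp, was nearer to R03E9.2.

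The promoter summit of mdl-1 was 94 bp upstream of the 5' end, with a signal of 78.1 (rank 977), 57.2 in replicate 1 and 19.1 in replicate 2. Of the 28 summits this was the one closest to the 5' end of its network gene. The strongest of the 8 was 113 bp past the 3' end, at 93.9 (rank 597), with 78.3 in replicate 1 and 19.9 in replicate 2. The next, 816 bp past the 3' end, had 79.6 (rank 928), with 54.5 in replicate 1 and 30.9 in replicate 2. The replicates ordered these peaks differently, since the peak 816 bp past the 3' end was the strongest at mdl-1 in replicate 2 and was below 3 others in replicate 1. The intronic summit at +656 bp had 51.1, with 34.4 in replicate 1 and 14.5 in replicate 2. The summit at -4511 bp (70.7, replicates 58.4 and 11.8) was the strongest upstream of the promoter. The summit at -3246 bp (38.9, with 36.9 in replicate 1) was the only 1 of the 28 that overlapped no peak of replicate 2. A further strong peak, with a signal of 118.3 (rank 287), lay 5791 bp downstream of the 5' end, 2243 bp past the end of the window, and was also nearest to mdl-1. It is not counted above.

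E-boxes of the form CACGTG, the kind of site that proteins of this network bind, were common at the mdl-1 summits. CACGTG is the same on both strands, and it lay within 50 bp of 4 of the 8 mdl-1 summits, 2 of the 11 at mxl-3 and 1 of the 7 at hlh-30. This made 7 of 28 against 277 of 5560 optimal summits overall (4.98%). The window of mdl-1 was itself rich in the hexamer, with 14 copies (9.0 per 10 kb), and that of mxl-3 had 10 (6.59 per 10 kb), against 1.77 per 10 kb over the genome. The 4 copies at each of mml-1 and mxl-2 and the 1 at mxl-1 were not within 50 bp of an optimal summit. Of the 41 copies in all 6 windows, 7 lay within 50 bp of an optimal summit (17.1%), against 1.66% of all copies in the genome. These windows held 2.46 optimal summits per 10 kb against 0.554 over the genome, and their genes were chosen with peak signals known. A copy of any sequence there is thus more likely to lie near a summit. For TGATAAG the same shares were 17.6% and 8.46%. A match of letters is not a bound E-box, and which protein is at these sites was not measured.

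The 4 mdl-1 summits with an E-box are shown as 101 bases of WBcel235 centred on the summit, plus strand, 5' to 3', with the motifs searched in capitals. The capitals mark CACGTG, and the first sequence also holds TGATAAG, read on the minus strand.
mdl-1 at -2747 bp, chrX:6739554-6739654: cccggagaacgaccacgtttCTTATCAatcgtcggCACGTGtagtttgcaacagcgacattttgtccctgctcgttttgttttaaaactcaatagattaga
mdl-1 at -94 bp, chrX:6742207-6742307: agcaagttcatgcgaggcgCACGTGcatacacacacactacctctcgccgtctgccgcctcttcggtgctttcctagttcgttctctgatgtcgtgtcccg
mdl-1 at +656 bp, chrX:6742957-6743057: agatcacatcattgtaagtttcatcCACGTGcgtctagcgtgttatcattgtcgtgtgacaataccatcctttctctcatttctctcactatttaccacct
mdl-1 at +1661 bp, chrX:6743962-6744062: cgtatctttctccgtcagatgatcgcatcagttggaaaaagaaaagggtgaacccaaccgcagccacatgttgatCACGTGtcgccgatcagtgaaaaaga
With 1 base to each side, the E-box reads GCACGTGT at -2747 bp and GCACGTGC at -94 bp. It reads CCACGTGC at +656 bp and TCACGTGT at +1661 bp. The octamer TCACGTGA was within 50 bp of none of the 28 summits and of 0.612% of all optimal summits. The centres of the 4 E-boxes lay 12.5, 28.5, 22.5 and 27.5 bp from their summits.

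TGATAAG, the heptamer linked with PQM-1, was within 50 bp of 3 of the 28 summits (10.7%), against 23.9% of all optimal summits. They were the mdl-1 summit at -2747 bp and the hlh-30 summits at +5460 and +12386 bp. Their signals were 36.9, 39.0 and 44.7, and none of the 6 network peaks in the strongest 1000 had the heptamer. With only 6 peaks this says little, and the share over the strongest 1000 is not given. None of the 11 mxl-3 summits had TGATAAG, and the mxl-3 window holds 1 copy in 15.2 kb. Of the 18686 copies in the genome 8.46% lay within 50 bp of an optimal summit, and of the 17 in the 6 windows 3 did. The shorter TGATAA, chosen after the sequences were seen, was at 10 of 28 summits (35.7%) against 43.3% of all optimal summits, among them 3 of mxl-3 and 4 of mdl-1. AGATAA was at 3 of 28 (all optimal 11.9%), GAGAGAG at 1 (8.29%) and GTAAACA, the DAF-16 site, at none (3.11%). All motifs were searched on both strands. At least 1 of the 6 was at 13 of 28 (46.4%), which is near the share over all optimal summits (44.8%).

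The strongest mxl-3 peak, which holds none of the 6 motifs, and the mxl-3 peaks with an E-box (capitals) are shown in the same way. That strongest peak does hold the shorter TGATAA, read on the minus strand and left in small letters.
mxl-3 at -10058 bp, chrX:13360812-13360912: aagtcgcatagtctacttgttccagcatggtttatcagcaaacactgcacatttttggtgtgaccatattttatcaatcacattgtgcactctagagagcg
mxl-3 at -8030 bp, chrX:13358784-13358884: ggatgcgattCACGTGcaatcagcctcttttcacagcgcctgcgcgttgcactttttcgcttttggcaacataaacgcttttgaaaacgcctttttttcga
mxl-3 at +2149 bp, chrX:13348605-13348705: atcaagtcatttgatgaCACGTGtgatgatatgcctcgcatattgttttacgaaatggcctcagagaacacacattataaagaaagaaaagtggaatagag
The 101 bases at mxl-3 summits had a median of 40.6% G and C, close to the 39.6% over all optimal summits, while those of hlh-30 had 48.5% and those of mdl-1 46.5%.

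The TFEB gene hlh-30 (WBGene00020930, chrIV:4014793-4034951, minus strand) differed from mxl-3 and mdl-1 in where it was bound. It is 20159 bp long, with 13 annotated transcripts. All 7 optimal summits were in its introns, from 5460 to 14873 bp past the 5' end, and none lay in the 12 kb upstream or past the 3' end. Its signals were low, from 25.05 to 44.7 with a median of 33.96, and none ranked among the strongest 1000 peaks. The annotated transcripts start at the 5' end and again 167, 6824, 7888, 15907 and up to 16620 bp further in. The summit at +6505 bp (signal 31.01) was at -319 bp from the start of transcripts b and c. The summit at +7218 bp (25.05) was at -670 bp from the start of transcripts d.1 and e.1. These 2 lay in the promoter of an internal transcript start. In replicate 1 they had 29.5 (rank 3212) and 21.6 (rank 4621). In replicate 2 they were weak, with 4.49 (rank 14922) and 3.52 (rank 21218). The summit at +14873 bp (33.96), at -1034 bp from the start of transcript f.1, was just outside the promoter limit. The remaining 4 were at -1364 to -7035 bp from the next annotated start. By the 5' ends of genes alone, the summit at +14873 bp was nearer to W02C12.2, downstream of hlh-30, and the other 6 were nearest to hlh-30.

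**Figure D3:**
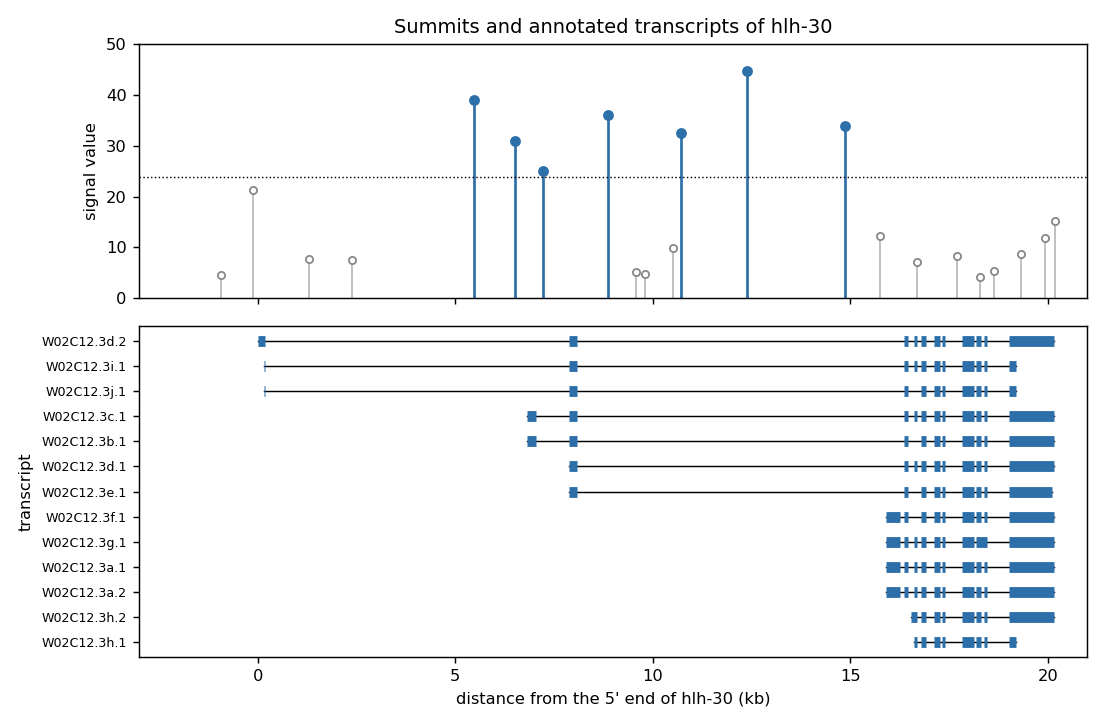
Summits of hlh-30 by distance from its 5' end in kb against the authors' signal value (upper panel, filled for optimal and open for weaker pooled peaks, dotted line at 23.8), above the exons (blocks) of its 13 annotated transcripts. The 7 optimal summits lie between 5460 and 14873 bp, in introns, and the peak at the 5' end (21.3) is under the limit.

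The replicates gave the hlh-30 summits different weight. The strongest, at +12386 bp, had a pooled signal of 44.7 (rank 2655), with 24.9 in replicate 1 (rank 3931) and 15.5 in replicate 2 (rank 1988). The summit at +14873 bp had 33.96 pooled, with 11.4 in replicate 1, where it ranked 7750, and 21.3 in replicate 2, where it was the strongest of the gene at rank 1095. The summit at +10703 bp went the other way, with 33.98 in replicate 1 (rank 2622) and 3.90 in replicate 2 (rank 18516). That replicate 2 summit lay 279 bp away, nearer to a weaker pooled peak at +10501 bp (9.93), which it also overlapped. Only 3 of the 7 were among the strongest 5560 peaks of replicate 2, against 6 of 7 in replicate 1. At the first 5' end a pooled peak at -134 bp had a signal of 21.3, with 13.3 in replicate 1 and 8.79 in replicate 2. In replicate 2 it ranked 4770, inside the strongest 5560, and in replicate 1 it ranked 6969. The call at the hlh-30 promoter thus depends on the list used.

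The 3 hlh-30 summits with TGATAAG or CACGTG (capitals) are shown next.
hlh-30 at +5460 bp, chrIV:4029441-4029541: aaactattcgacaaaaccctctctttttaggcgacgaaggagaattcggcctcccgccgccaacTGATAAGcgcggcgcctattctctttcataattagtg
hlh-30 at +8872 bp, chrIV:4026029-4026129: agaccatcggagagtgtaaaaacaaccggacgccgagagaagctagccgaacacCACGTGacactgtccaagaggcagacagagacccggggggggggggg
hlh-30 at +12386 bp, chrIV:4022515-4022615: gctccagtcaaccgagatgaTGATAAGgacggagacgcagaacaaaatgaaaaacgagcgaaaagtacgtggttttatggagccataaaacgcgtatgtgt
The E-box at +8872 bp was the closest of the 7 to its summit, with its centre 6.5 bp away. That peak had a signal of 36.0, with 26.9 in replicate 1 and 7.06 in replicate 2.

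The Mondo arm of the network was bound little. At mml-1 (WBGene00003378, chrIII:7370130-7374731, minus strand, 2 transcripts) the only optimal summit was at -1879 bp, with a signal of 31.3 (rank 4260). It was 30.4 in replicate 1 (rank 3076) and 9.20 in replicate 2 (rank 4445), where the summit was 236 bp away. A second peak, at -916 bp and inside the promoter, fell just short in the pooled list, with 21.01 (rank 6208). In replicate 2 this promoter peak was the stronger, at 14.6 (rank 2204), and in replicate 1 it had 11.7 (rank 7616). The replicates therefore differed in which of the 2 peaks led, and a promoter call at mml-1 holds in replicate 2's strongest peaks but not in the optimal list. The stretch between mml-1 and its upstream neighbour T20B12.7, whose 3' end is at -3120 bp, held both peaks.

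At mxl-2, the partner of mml-1 (WBGene00003510, chrIII:186949-188131, minus strand), no optimal summit lay in the window, and the nearest outside it was 1682 bp past the downstream end. The strongest pooled peak had a signal of 18.5 (rank 6849), at -357 bp. This peak had 22.7 in replicate 1 (rank 4375) and no counterpart in replicate 2. It lies between mxl-2 and ubc-20, a ubiquitin-conjugating enzyme gene that points the other way and whose 5' end is at -707 bp, so the summit lies about midway between the 5' ends of both genes. The other 4 pooled peaks in the window had signals from 4.12 to 9.70. The optimal mml-1 peak and the mxl-2 promoter peak, neither with any of the 6 motifs, are shown for comparison with those above.
mml-1 at -1879 bp, chrIII:7376560-7376660: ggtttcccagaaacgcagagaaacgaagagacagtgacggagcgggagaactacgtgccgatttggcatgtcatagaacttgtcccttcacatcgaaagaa
mxl-2 at -357 bp, chrIII:188438-188538: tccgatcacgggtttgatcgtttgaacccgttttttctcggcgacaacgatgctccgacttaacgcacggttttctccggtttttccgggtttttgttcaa

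The Max-like gene mxl-1 (WBGene00003509, chrV:11244839-11245926, plus strand), whose product pairs with MDL-1, had no optimal summit of its own. The single one in its window was at -8671 bp, with a signal of 44.7 (rank 2651), 32.2 in replicate 1 and 11.6 in replicate 2. It lay in a coding exon of T19B10.5, and 3 further genes, dvc-1, ima-1 and pgap-1, lie between that gene and mxl-1. The pgap-1 gene ends 113 bp upstream of mxl-1 on the same strand. In the mxl-1 promoter the pooled list held a peak of 9.24 at +135 bp and another of 6.29 at -483 bp. The first was seen in replicate 2 alone (6.03) and the second in replicate 1 alone (9.10). Of the partners, mdl-1 thus had 8 optimal summits in its window and mxl-1 had 1, and 7 were nearest to mdl-1 and 0 to mxl-1.

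Across the 28 optimal peaks, both replicates showed most of the sites. By an overlap of 1 bp or more, all 28 met a peak of replicate 1 and 27 met one of replicate 2. Thus 96.4% were in both, near the 93.4% of all optimal peaks. Stricter rules gave fewer. When the overlap had to cover at least as much of each peak as it left out, 18 of the 28 were in both. When the summits had to lie within 100 bp, 21 of the 28 were in both. For these stricter rules no share over all optimal peaks is given. With each peak paired to the overlapping one of nearest summit, 28 distinct peaks of replicate 1 and 25 of replicate 2 stood behind the 28. Within the strongest 5560 peaks of each replicate, 27 were in replicate 1, 22 in replicate 2 and 21 in both, again without a share over all optimal peaks. The median distance between the optimal summit and that of the replicate was then 14 bp in replicate 1 and 37 bp in replicate 2, with a highest of 69 and 279 bp. The replicate lists hold 26022 and 30000 peaks, background among them by their label, so an overlap alone does not show binding. Signals were not compared between lists.

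**Figure D4:**
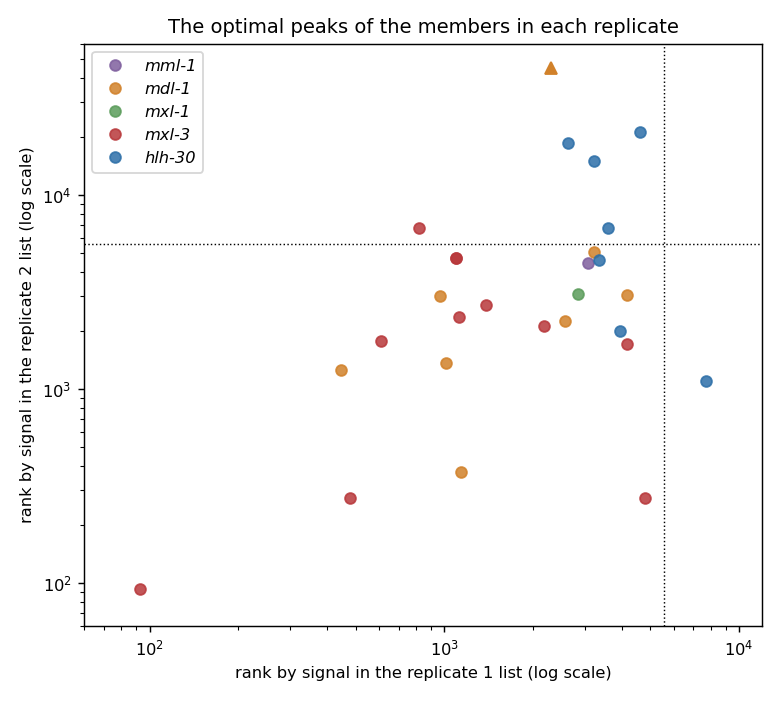
Rank by signal of the strongest replicate 1 and replicate 2 peak that overlaps each optimal peak of the network genes (log scales, 1 is strongest); dotted lines mark rank 5560, and the triangle is the mdl-1 peak with no overlapping peak in replicate 2, drawn at the top edge. The strongest mxl-3 peak ranks 93 in both, and 4 of the 7 hlh-30 peaks lie above rank 5560 in replicate 2.

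The optimal peaks just inside the limit of 23.8 and those just outside it show how the windows end. The weakest optimal summit among the 28 was that of hlh-30 at +7218 bp (25.05). The strongest pooled peaks left out were at the 5' ends of mxl-3 (22.7) and hlh-30 (21.3) and in the promoter of mml-1 (21.01). Of the optimal peaks outside the windows, the closest was 654 bp beyond the upstream end of the mml-1 window (signal 38.8).

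Other bHLH genes were counted in the same way. All 35 listed bHLH genes outside the network were found. Of these, 21 had an optimal summit in the window (against 55.0% of all genes), with a median of 1 and a highest of 6 summits, at hlh-13. Their promoters held an optimal summit in 4 cases (11.4%, against 16.3%). The 4 were hlh-11 (signal 51.9), hlh-13 (43.0), sbp-1 (40.4), the worm SREBP, and aha-1 (25.2), which encodes the partner of the hypoxia factor HIF-1.

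Genes that act around HLH-30 were also counted, from lists drawn up from the literature on HLH-30 and MXL-3 with earlier results of this experiment known. Of 7 genes of the TOR pathway and nuclear export, which set where HLH-30 is in the cell, 3 had an optimal promoter summit (42.9%, against 16.3% of all genes). They were rsks-1, the S6 kinase (26.8), daf-15, the worm Raptor (24.7), and flcn-1, the worm folliculin (24.4). All 3 were close to the limit of 23.8. The promoters of the other 4, among them let-363, which encodes TOR itself, held none. The last list held 16 genes reported as targets of HLH-30 or MXL-3, which apart from fmo-2 are lysosome, lipase and autophagy genes. Of the 16, 14 had an optimal promoter summit (87.5%, against 16.3% of all genes). The strongest were at asp-1, an aspartyl protease (121.5), lgg-2, an Atg8 family gene (109.5), fmo-2, a flavin-containing monooxygenase (102.2), lipl-5, a lipase (98.6), cpr-1, a cathepsin B-like protease (87.5), and lipl-2, a lipase (76.5). The other 8 had 25.1 (atg-9) to 66.9 (lgg-1). The promoters of unc-51, an autophagy kinase gene, and sqst-1, an autophagy receptor gene, held none, though each had an optimal summit in its window (these 4 genes and let-363 were named after their values were seen). The shares describe these short lists and were not tested.

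Ordered by the signal of the strongest optimal summit nearest to each gene, in the pooled list, 4086 genes had a place. In that order mdl-1 stood at 278 (118.3, with the peak past its window counted), between ent-4, a nucleoside transporter gene (118.4), and got-2.2, an aspartate aminotransferase gene (118.3). The mxl-3 gene stood at 775 (82.8), beside pck-2, a phosphoenolpyruvate carboxykinase gene (82.8), and F59B1.8 (82.7). The hlh-30 gene stood at 2173 (44.7), beside C05C12.4 (44.7) and F54B11.5 (44.7), and mml-1 at 3276 (31.3), beside pxl-1, the worm paxillin gene (31.3), and mpz-5 (31.3). Since mxl-3 takes its place from the peak at -2931 bp, the stronger peaks nearer to C49F8.15 are left out of its place. No optimal summit was nearest to mxl-1 or mxl-2.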

How the data were processed

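ChIP-seq of eGFP-tagged PQM-1 was done on 1 group of 2 biological replicates (whole L3 larvae), with fragments selected at 150 to 350 bp according to the labels. The 4 narrowPeak lists on ce11 were used: the optimal list (5560 peaks), the pooled relaxed list (30000), and the relaxed list of each replicate (26022 and 30000). Each replicate's list was made from its alignment and 1 further file, per the deposited file descriptions. No aligner, peak caller or IDR threshold is named in the labels or files read. The ce10 lists were not used.

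The signal value (column 7) is a score deposited by the authors with no stated scale, and it served to order peaks inside each list. The authors' −log10 q column has the same entry for every optimal peak and was not used.

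Summits were placed on WBcel235, the same assembly as ce11, with Ensembl release 115, and the 5' end of a gene was that of its longest extent. Distances are signed, negative upstream. A peak counted as seen in a replicate if the intervals shared 1 bp or more, and the strongest overlapping peak gave its signal and rank. Distinct replicate peaks and summit distances used the overlapping peak of nearest summit. Depth is unknown. No statistical test was run, since the genes, lists and alternatives were chosen with earlier results of these data known. Genes named by rule are the 6 genes, the genes nearest to their summits, up to 6 bound genes per list and the neighbours in the order of signal. Other windows, promoters, motif distances, stricter lists and single replicates were tried. The code was checked on made-up data. Python 3.11.15, numpy 2.4.6, pandas 2.3.3 and matplotlib 3.10.9 were used.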

Additional observations from a re-analysis of the deposited data

How the results depend on the processing

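Of 33 alternatives to the counts over all 6 genes, planned or added, 20 stayed within 1.5 times the reported count. The count of 28 summits was 15 in the strongest 2780 optimal peaks and 6 in the strongest 1000, where 2 genes kept a summit. A window of 5 kb upstream to 1 kb downstream gave 20 summits in 4 genes. The count of 2 genes with a promoter summit was 1 with a promoter of 500 bp upstream to 100 bp downstream, 1 in the strongest 1000 peaks and 6 with the whole pooled list, and ran from 3 to 4 when replicate 2 or replicate 1 was left out and the other replicate's strongest 5560 peaks were used. TGATAAG (3 summits) was at 1 summit within 25 bp, at 10 when TGATAA was counted instead (chosen after seeing the data), and at 1 to 3 with a replicate left out. CACGTG (7 summits) was at 3 within 25 bp, at 11 within 100 bp, and at 3 to 5 with a replicate left out, 3 without replicate 1. With so few summits these motif counts move with the window, and the cause was not tested. Without replicate 1 hlh-30 had 4 summits and mml-1 had 2, without replicate 2 mxl-2 had 1, and the strongest 2780 peaks left hlh-30 with 1. The smaller window left mxl-3 with 5 and mxl-1 with 0. Under every alternative run, mxl-3 and mdl-1 had at least 3 summits each. Pairing by nearest summit, chosen after the pairs were seen, left 27 peaks in both replicates and changed 1 pair, that of mxl-3 at -6048 bp in replicate 1. The unknown depth limits what the lack of a peak at mxl-1 and mxl-2 can show.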
